A study of Arabidopsis thaliana with 45 samples.

Results

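The genes described here are 10 members of the XTH family of Arabidopsis thaliana, the xyloglucan endotransglucosylase/hydrolases: XTH4 (AT2G06850), XTH6 (AT5G65730), XTH9 (AT4G03210), XTH17 (AT1G65310), XTH18 (AT4G30280), XTH19 (AT4G30290), XTH22 or TCH4 (AT5G57560), XTH23 or XTR6 (AT4G25810), XTH24 or SEN4 (AT4G30270) and XTH30 (AT1G32170). They were chosen by locus ID, 10 of 37336 genes in the table, and all 10 are among the 23493 genes tested. Their RNA was measured by sequencing of polyadenylated RNA in first true leaves as these aged, in 45 libraries that form 15 groups of 3. The groups were Col-0 labelled short days (light for 8 h, dark for 16 h), tcx5/6 in the Col-0 background labelled long days (light for 16 h, dark for 8 h), and Col-0 under long days. Leaves were taken at D13, D18, D23 and D30 in every series, and last at D45 for tcx5/6 and D40 for the others. Col-0 is the common laboratory accession, and tcx5/6 names the genes TCX5 and TCX6. The labels write the day in units of DAG without spelling it out, and do not say whether replicates were separate plants, so a p-value speaks only of variation among libraries, part of which may be technical.

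Xyloglucan is a branched glucan that coats and links cellulose in the primary wall of dicot plants. XTH enzymes cut a xyloglucan chain and join the cut end to another chain, or to water, and act in the loosening and rebuilding of walls during growth. Members of the family are known for unlike triggers: some follow growth, TCH4 was found as a gene induced by touch, and SEN4 as a gene of senescing leaves.

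Of the 15 libraries in each series, TCX5 lay at 54.1 to 216 normalised counts (reads per gene divided by the library's size factor) in those labelled short days, 231 to 522 in those labelled tcx5/6 and 271 to 525 in Col-0 under long days. TCX6 lay at 219 to 2200.01, 0 to 142 and 15.7 to 418 normalised counts in the same series. TCX5 was thus low in the libraries labelled short days and not in those labelled tcx5/6. CMT3, a DNA methyltransferase gene, lay at 968 to 2832 normalised counts in libraries labelled short days, 30.7 to 1281 in those labelled tcx5/6 and 33.3 to 600.3 in Col-0 under long days, and MET1, another, at 606 to 2503, 30.7 to 1644 and 19.0 to 1409. FT, which long days induce, had 3 or more reads in 11 of 15 libraries labelled short days, 2 of 15 labelled tcx5/6 and 14 of 15 of Col-0 under long days. At D13 it had no read in leaves labelled short days and was called lower than under long days (log2 change -3.04, adjusted p = 0.0094). At D40 that difference was not called (adjusted p = 0.59). In leaves labelled tcx5/6 FT was lower than in Col-0 at D13 and D30 (-3.04 and -4.63, adjusted p = 0.0083 and 1.7e-04). Its group means reached at most 49.3 normalised counts. TCX5, and FT in part, thus go against the labels of genotype and day length, which may not hold for the series labelled short days and tcx5/6. Relative to long-day Col-0, CMT3 was called higher in leaves labelled tcx5/6 at D13 and D30 (log2 changes 1.3 and 1.37, adjusted p = 3.3e-04 and 2.6e-04). In those labelled short days it was higher at D13 and D40 (2.47 and 4.53, adjusted p = 1.3e-08 and 5.9e-15). MET1 was not called in leaves labelled tcx5/6 at D13 or D30 (adjusted p = 0.45 and 0.47). In those labelled short days MET1 was higher at D13 and D40 (0.85 and 4.66, adjusted p = 0.0037 and 1.4e-17). TCX6 was higher in leaves labelled tcx5/6 at D13 (2.02, adjusted p = 0.013) and not called at D30 (adjusted p = 0.33). In those labelled short days TCX6 was higher at D13 and D40 (3.4 and 3.12, adjusted p = 8.4e-05 and 1.7e-04). The groups are called by their labels throughout, and each comparison is between libraries as labelled. QQS, an orphan gene with known epigenetic variation, had no read in any of the 15 short-day-labelled libraries and stood at 252 or more in every other library. Among genes with many reads, the 3 libraries of a group labelled short days also lay close to each other (XTH24 at D40 in the values below). Their median variance there was 4.64 to 19.98 times that of counting alone, against 10.75 to 50.11 labelled tcx5/6 and 8.03 to 133.47 in long-day Col-0. Among genes with few reads it was 4.13 to 18.74, 6.87 to 21.86 and 3.2 to 15.66 times in the same series. Between D13 and the last day, and between labels at D13 and D40, calls of the members described here that change when each such group is counted as 1 library are marked. Calls of other genes carry no such mark, whether or not they change. Libraries held 16824317 to 40252818 reads assigned to genes. Leaf mesophyll markers summed to 91202 to 96296 normalised counts in libraries labelled short days at D40, 36136 to 118718 in those labelled tcx5/6 at D45 and 5245 to 35374 in long-day Col-0 at D40, against 926626 to 1435684 across the 9 libraries at D13. Their part in the results was not tested. In these bulk samples, fewer cells of a type and less RNA per cell cannot be told apart.

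The enzymes share a catalytic site, and its coding sequence is printed here for each gene. Each stretch below has 27 bases of the coding strand, read by locus from RefSeq TAIR10.1, with the codons of the 2 catalytic glutamates in capitals. XTH4, XTH6, XTH9, XTH17, XTH23 and XTH30 lie on the plus strand, and XTH18, XTH19, XTH22 and XTH24 on the minus strand.
XTH4: gacGAGatagactttGAGttccttgga
XTH6: gacGAGctagattttGAGttcttggga
XTH9: aacGAAttcgattttGAGttcttaggg
XTH17: gatGAGatcgatttcGAGttcttggga
XTH18: gatGAGattgatttcGAGttcttagga
XTH19: gatGAGattgatttcGAGtttttgggg
XTH22: gacGAGatagatttcGAGtttttaggg
XTH23: gacGAGattgactttGAGttcttggga
XTH24: gatGAGattgattttGAGttcttgggt
XTH30: gacGAGttagacataGAGtttctaggg
Set against XTH4, XTH23 differed at 3 of the 27 bases, XTH6 at 4, and XTH9 and XTH19 at 8. Over the coding sequence, XTH17 and XTH18 were 92.2% identical, XTH18 and XTH19 89.0%, and XTH22 and XTH23 80.9%. The short stretch did not rank all pairs in the same way. XTH4 and XTH23 were only 63.3% identical over the coding sequence, and XTH22 and XTH23 differed at 6 of the 27 bases. The longest exact run between transcripts of XTH18 and XTH19 was 68 bases, so reads within such a run could be assigned to either gene. No exon of the 10 genes lies under a gene on the opposite strand in that annotation. XTH24, XTH18 and XTH19 are neighbours on chromosome 4.

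XTH17 and XTH18 also share sequence before their starts, and they are printed because their run was the longest of any pair of the 10 promoters. Their RNA followed different courses, described further on. The pair was chosen after its shared run was seen. These are the 150 bases before the annotated start in TAIR10.1, XTH17 from the plus strand of chromosome 1 and XTH18 from the minus strand of chromosome 4, with the shared run in capitals.
XTH17: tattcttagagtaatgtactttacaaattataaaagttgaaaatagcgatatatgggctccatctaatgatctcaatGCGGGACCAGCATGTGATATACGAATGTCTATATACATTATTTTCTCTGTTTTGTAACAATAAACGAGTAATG
XTH18: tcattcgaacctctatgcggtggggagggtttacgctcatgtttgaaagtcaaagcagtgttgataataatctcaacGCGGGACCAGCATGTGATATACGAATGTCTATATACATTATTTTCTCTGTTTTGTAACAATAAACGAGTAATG
The run covers the last 73 bases before the start and goes on for 7 bases after it. Of the last 100 bases before the start, 87 were identical at the same position, and of the 100 bases further upstream than these 150, 29 were. The next longest run between any pair of the 10 promoters (250 bases before to 50 after the start) was 11 bases. Searched on both strands of that window, the W-box core TTGAC was in 6 of the 10 promoters, against 51.1% of the promoters of tested genes. The G-box CACGTG was in 0 of the 10, against 8.7% of tested genes.

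**Figure D1:**
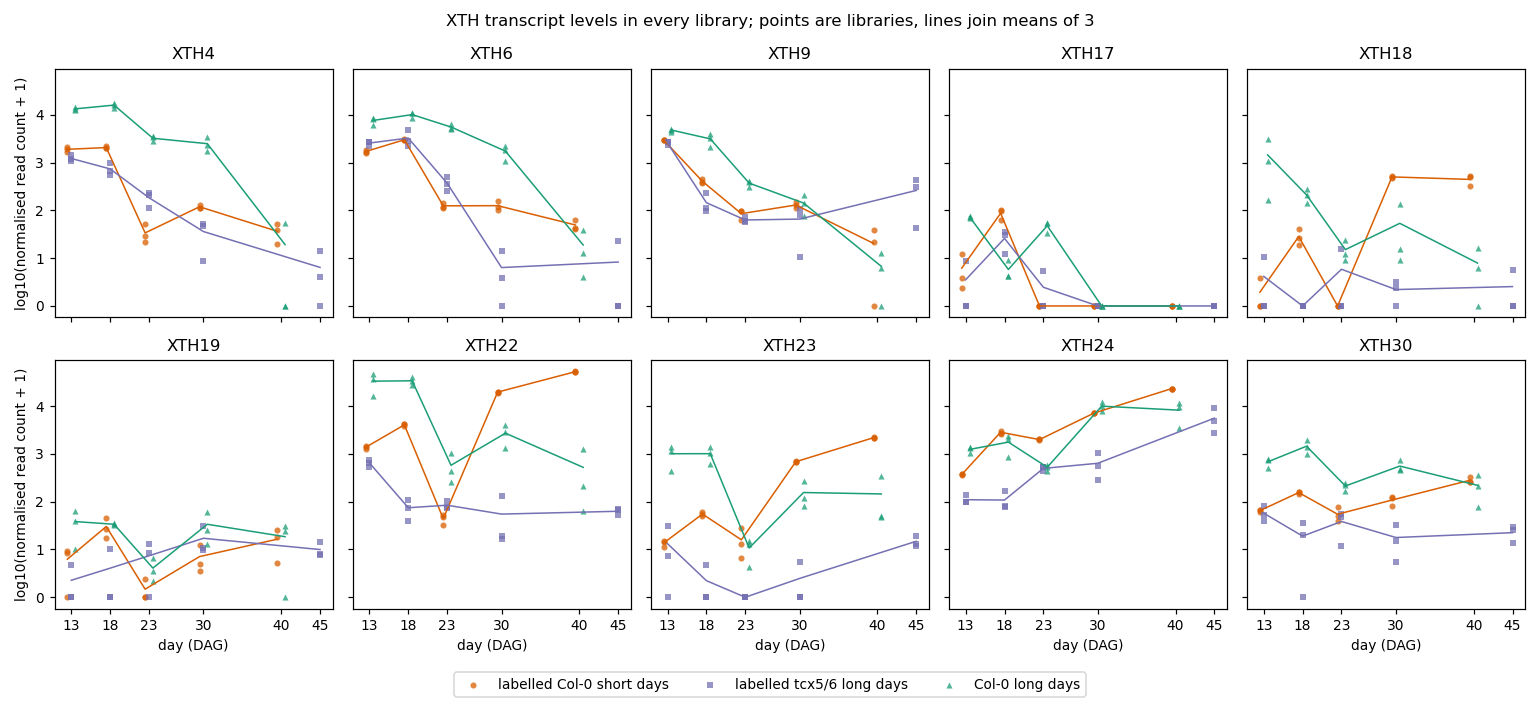
Levels of the 10 XTH genes in every library, as log10(normalised read count + 1) against the day (DAG). Circles are libraries labelled Col-0 short days, squares those labelled tcx5/6 and triangles Col-0 long days; lines join the means of 3 libraries. XTH4, XTH6 and XTH9 are lower at the last day than at D13 in each series, though not at every step, while XTH22 and XTH23 end highest in the series labelled short days.

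Under long days, 8 of the 10 genes were lower in Col-0 leaves at D40 than at D13, and 1, XTH24, was higher. Across all genes tested, 35.8% fell and 34.0% rose in this comparison, and 69.8% were called either way, against 9 of the 10. The median log2 change of the 10 was -6.54, against -0.01 over all genes tested. The members most abundant in young leaves lost nearly all of their RNA.

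XTH4, XTH6 and XTH9 are transcribed in growing tissue, and XTH4 and XTH9 are known to act in the thickening of stems. XTH4 had 0, 54.7 and 0 normalised counts in long-day Col-0 at D40, against 13257, 14236 and 12520.2 at D13, a log2 change of -11.77 ± 0.85 (SE, adjusted p = 9.3e-15). XTH6 had 3.08, 38.7 and 11.9 normalised counts at D40, against 6142, 7985 and 8783 at D13, a log2 change of -9.21 ± 0.74 (adjusted p = 2.1e-13). XTH9 had 0, 5.34 and 11.9 normalised counts at D40, against 4396, 4885 and 5124 at D13, a log2 change of -10.11 ± 0.87 (adjusted p = 1.1e-12). The groups did not overlap for any of the 3 genes, and every D40 library lay far under every D13 library. Because single libraries at D40 were at 0, these fitted sizes depend on the 1 added before taking logs, and that of XTH4 was -13.70 without library 2 of D40 and -10.80 without library 1 or 3. Of the steps between sampling days, XTH9 was called lower at D23 than at D18 (log2 change -3.04, adjusted p = 0.017) and at D40 than at D30 (-4.92, adjusted p = 1.1e-05). XTH4 and XTH6 were called lower at D40 than at D30 (-9.29 and -7.02, adjusted p = 1.9e-11 and 6.0e-10). XTH4 also stood at 2790.2, 3373 and 3537 normalised counts at D23, against 15827, 14156 and 17933 at D18, groups that do not overlap in a step that was not called. Differences in timing between the genes were not tested.

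XTH22 and XTH23, the touch-induced TCH4 and its near relative, also fell. XTH22 had 1294, 209.6 and 61.9 normalised counts at D40, against 46107, 37256 and 16396 at D13 (log2 change -6.88 ± 0.64, adjusted p = 9.3e-12). XTH23 had 335, 46.7 and 49.97 normalised counts at D40, against 1413, 1169 and 439 at D13 (log2 change -3.27 ± 0.83, adjusted p = 7.3e-04). In both genes all D40 libraries were lower than all D13 libraries, with 1 of the 3 at D40 well above the other two. Without that library 1 the log2 changes of XTH22 and XTH23 were -8.05 and -4.19, and without library 3 that of XTH22 was -5.86. Neither fell steadily. From D18 to D23 the log2 change was -6.09 for XTH22 and -6.67 for XTH23 (adjusted p = 1.1e-08 and 3.2e-07), and from D23 to D30 it was 2.33 and 3.86 (adjusted p = 0.0037 and 2.9e-04).

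XTH17, XTH18 and XTH19 belong to a close subgroup best known from roots. XTH18 had 15.4, 5.34 and 0 normalised counts at D40, against 3103, 1079 and 165 at D13 (log2 change -7.45 ± 1.06, adjusted p = 1.2e-07). Its D13 libraries differed 18.83-fold from lowest to highest, while those of XTH4 differed 1.14-fold, so the young level of XTH18 is poorly fixed. Library 3 at D13 was also the lowest of the 3 for XTH4, XTH19, XTH22, XTH23 and XTH24. XTH17 had no read at D40, against 73.5, 69.9 and 74.3 normalised counts at D13, at least 53.6-fold lower when 3 reads over the group are taken as the floor (adjusted p = 1.0e-10). XTH17 was also low at D18, at 3.24, 3.14 and 8.04, and back at 33.4, 54.2 and 52.5 normalised counts at D23. XTH19 had 23.1, 29.4 and 0 normalised counts at D40, against 39.3, 63.3 and 9.45 at D13, groups that overlap and did not pass the test (adjusted p = 0.15), although it passed without library 2 of D40 (log2 change -2.61, adjusted p = 0.0496).

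XTH24, found as the senescence-associated gene SEN4, went the other way. It had 11657, 9526 and 3461 normalised counts in long-day Col-0 at D40, against 1360.1, 1300.3 and 1053 at D13, a log2 change of 2.56 ± 0.39 (adjusted p = 3.4e-07). All D40 libraries lay above all D13 libraries. The increase lay between D23 and D30, with 11986, 7812 and 10132 normalised counts at D30, against 542, 597 and 435 at D23 (log2 change 4.24, adjusted p = 6.6e-11). XTH30, a member of the third main branch of the family, had 366, 215 and 75 normalised counts at D40, against 517, 764 and 754 at D13 (log2 change -1.88 ± 0.74, adjusted p = 0.024). That call was lost without library 2 of D13, library 3 of D13 or library 3 of D40 (adjusted p = 0.062, 0.059 and 0.17).

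In the leaves labelled short days, the 10 genes split: 5 rose and 4 fell at D40 relative to D13. Over all genes tested, 34.0% rose and 36.5% fell, and 70.5% were called. XTH18, XTH22, XTH23, XTH24 and XTH30 rose, and XTH4, XTH6, XTH9 and XTH17 fell. The median log2 change of the 10 was 1.88, against -0.06 over all genes.

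XTH22 had 53894, 52859.8 and 50849.7 normalised counts in leaves labelled short days at D40, against 1376, 1272 and 1450.3 at D13, a log2 change of 5.27 ± 0.64 (adjusted p = 5.8e-09). XTH23 had 2274, 2166 and 2108 normalised counts at D40, against 13.6, 14.1 and 10.3 at D13, a log2 change of 7.33 ± 0.83 (adjusted p = 1.1e-09). XTH18 had 324, 516 and 494 normalised counts at D40, against 0, 2.81 and 0 at D13, a log2 change of 8.13 ± 1.06 (adjusted p = 2.4e-08). None of the 3 genes had overlapping groups, and all 3 stood low at D23. XTH22 stood at 19882, 19836 and 19183 normalised counts at D30, against 46.9, 51.7 and 30.8 at D23, and its log2 change between these days was 8.83 (adjusted p = 7.6e-13). XTH18 stood at 487, 520.4 and 496 at D30 and had no read at D23.

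XTH24 rose as well, with 23338, 23247 and 23028 normalised counts at D40, against 372, 363 and 372 at D13 (log2 change 5.97 ± 0.39, adjusted p = 1.1e-15). It was called higher at D18 than at D13 (2.94, adjusted p = 1.8e-07), at D30 than at D23 (1.84, adjusted p = 3.4e-04) and at D40 than at D30 (1.70, adjusted p = 6.4e-04). XTH30 had 258, 321 and 259 normalised counts at D40, against 65.4, 59.0 and 67.5 at D13 (log2 change 2.10 ± 0.74, adjusted p = 0.012), a call lost with each group as 1 library (adjusted p = 0.27). XTH19 did not pass the test, with 24.4, 4.21 and 17.6 normalised counts at D40 and 0, 8.43 and 7.34 at D13 (adjusted p = 0.17).

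XTH4, XTH6 and XTH9 fell with age here too, mostly by D23. XTH4 had 37.2, 50.5 and 19.0 normalised counts at D40, against 1887, 1697 and 2111 at D13 (log2 change -5.80 ± 0.85, adjusted p = 2.0e-07). XTH6 had 41.8, 63.1 and 40.6 normalised counts at D40, against 1811, 1668 and 1617 at D13 (-5.13 ± 0.74, adjusted p = 1.8e-07). XTH9 had 0, 37.9 and 20.3 normalised counts at D40, against 3004, 2962 and 2953 at D13 (-8.31 ± 0.87, adjusted p = 1.8e-10). The groups stood apart in all 3 genes. The log2 change of XTH9 was -6.69 without library 1 of D40 and -9.33 without library 2. XTH4 and XTH6 dropped between D18 and D23 (log2 changes -6.02 and -4.60, adjusted p = 8.7e-07 and 8.8e-06), a step that was not called for either gene under long days. XTH17 had 103, 93.9 and 61.3 normalised counts at D18, and no read at D23, D30 or D40. Its fall from D13, where it had 1.36, 11.2 and 2.93 normalised counts, was lost after quantile normalization and with each group as 1 library (adjusted p = 0.067 and 0.072).

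In leaves labelled tcx5/6, 4 of the 10 genes were lower at D45 than at D13 and 2 were higher, where 33.9% of all genes tested fell, 30.1% rose and 64.0% were called. XTH4, XTH6, XTH9 and XTH22 fell and XTH24 and XTH19 rose. XTH4 had 3.09, 0 and 13.1 normalised counts at D45, against 1176, 1069 and 1413 at D13 (log2 change -8.29 ± 0.85, adjusted p = 1.1e-10). XTH6 had 0, 0 and 21.9 normalised counts at D45, against 2685, 2738 and 2273 at D13 (-9.81 ± 0.74, adjusted p = 6.1e-14). XTH22 had 51.8, 66.3 and 67.9 normalised counts at D45, against 653, 755 and 534 at D13 (-3.36 ± 0.64, adjusted p = 2.4e-05). In these genes the groups did not overlap, and XTH22 had reached its low level by D18, at 74.5, 108 and 38.6.

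XTH24 had 9172, 4855 and 2758 normalised counts at D45 in leaves labelled tcx5/6, against 96.8, 95.7 and 134 at D13 (log2 change 5.52 ± 0.39, adjusted p = 7.6e-15). Every D45 library lay above every D13 library. XTH9 fell, with 301, 439.8 and 41.6 normalised counts at D45 against 2712, 2327 and 2677 at D13 (-3.85 ± 0.87, adjusted p = 2.2e-04). It had 9.67, 105 and 79.8 normalised counts at D30, which overlap those at D45. XTH19, at 6.95, 6.78 and 13.1 normalised counts at D45 and 0, 3.79 and 0 at D13, was called (2.50 ± 1.08, adjusted p = 0.043). The call was lost in 5 of 6 fits that left out a library, at adjusted p = 0.062 to 0.13, and with edgeR (adjusted p = 0.10). XTH17, XTH18, XTH23 and XTH30 did not pass the test, and no library of these 4 genes exceeded 80.3 normalised counts at D13 or D45. XTH30 was called with a pseudocount of 10 and with edgeR (adjusted p = 0.039 and 0.044), XTH17 with edgeR (0.029), and XTH23 without library 3 of D13 (log2 change 2.44, adjusted p = 0.011).

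From each sampling day to the next, the number of the 10 genes called differed between the series. Under long days 1 was called at D18 against D13, 7 at D23 against D18, 5 at D30 against D23 and 5 at D40 against D30, where 9.70%, 11.2%, 41.3% and 52.7% of all genes tested were. In the step of D23 against D18, XTH9, XTH18, XTH22, XTH23, XTH24 and XTH30 fell and XTH17 rose. In leaves labelled short days 4, 7, 4 and 2 of the 10 were called in the same order of steps, where 31.3%, 29.9%, 25.5% and 38.3% of all genes were. In those labelled tcx5/6, with D45 as the last day, 4, 3, 2 and 3 of the 10 were called, where 39.5%, 21.6%, 27.4% and 23.1% were.

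**Figure D2:**
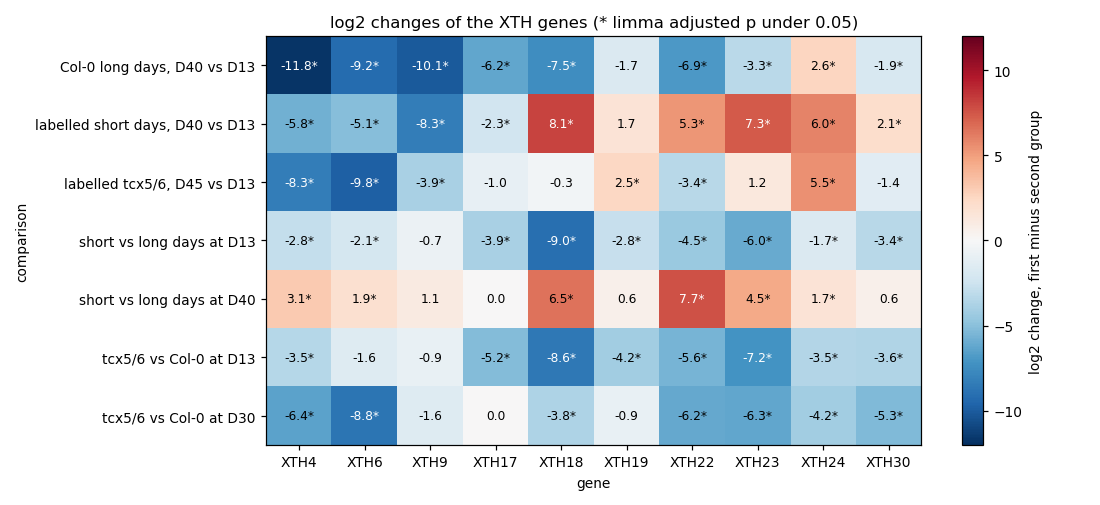
Log2 change of each XTH gene (columns) in 7 comparisons (rows), the first-named group minus the second, from limma on log2(value + 1); an asterisk marks an adjusted p under 0.05. XTH24 is red in all 3 rows of age change, XTH4, XTH6 and XTH9 are blue in all 3, and XTH22 is -6.9 under long days and 5.3 in the row labelled short days.

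Age changes differed between leaves labelled short days and long days for 8 of the 10 genes. All 8 had a higher (more positive or less negative) log2 change in leaves labelled short days. Of all genes tested, 25.4% had a higher change there and 20.4% a lower one, and 45.8% were called. XTH18 had the widest difference of log2 changes, 15.58 ± 1.5 (adjusted p = 1.6e-10), followed by XTH22 at 12.15 ± 0.91 (adjusted p = 4.5e-13) and XTH23 at 10.60 ± 1.18 (adjusted p = 3.4e-09). These 3 genes rose in leaves labelled short days and fell under long days. XTH30 also had opposite signs, with a difference of 3.98 ± 1.05 (adjusted p = 0.0021). XTH24 rose under both labels, by 3.41 ± 0.55 more in those labelled short days (adjusted p = 3.5e-06). XTH4 and XTH6 fell under both, with differences of 5.97 ± 1.20 and 4.08 ± 1.05 (adjusted p = 9.9e-05 and 0.0017), as did XTH17 (3.92 ± 0.90, adjusted p = 5.4e-04). At D40 XTH4 averaged 35.5 normalised counts in leaves labelled short days and 18.2 under long days, and XTH6 48.5 and 17.9. At D13 XTH4 and XTH6 were lower in leaves labelled short days, so part of each difference is that of D13. XTH17 had no read at D40 under either label, so its difference is that of D13 with the sign turned and says nothing of ageing. XTH9 and XTH19 did not pass this test (1.80 and 3.39, adjusted p = 0.24 and 0.069), though both did when single libraries were left out, such as library 1 labelled short days at D40 for XTH9 (3.42, adjusted p = 0.0073) and library 2 of long-day D40 for XTH19 (4.27, adjusted p = 0.027). The calls of XTH6, XTH17 and XTH30 were lost with each short-day-labelled group as 1 library (adjusted p = 0.10, 0.061 and 0.11), and that of XTH17 with edgeR (adjusted p = 1).

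The direction of the difference between the labels also differed between D13 and D40. At D13, 9 of the 10 genes were lower in leaves labelled short days than under long days and none was higher, where 19.5% of all genes tested were lower, 20.6% higher and 40.0% called. At D40, 6 were higher and none lower, where 29.1% were higher, 21.2% lower and 50.3% called. The 6844 higher and 4976 lower genes at D40 became 5178 and 6994 after quantile normalization, which moved the median of all genes by -0.22 (log2). For the interaction, the 5960 higher and 4795 lower genes became 4795 higher and 6323 lower.

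At D13, XTH23 averaged 12.6 ± 2.07 normalised counts in leaves labelled short days and 1007 ± 507 under long days (SD, n = 3 each), a log2 change of -6.05 (adjusted p = 3.0e-07). XTH22 averaged 1366 ± 89.5 and 33253 ± 15255 in the same groups (-4.48, adjusted p = 6.9e-07). XTH30 averaged 64.0 ± 4.40 and 678 ± 139.9 (-3.37, adjusted p = 3.7e-04). XTH18 averaged 0.937 ± 1.62, from 4 reads in 1 library, and 1449 ± 1503 (-9.04, adjusted p = 1.5e-08). XTH4 (-2.82, adjusted p = 0.0073), XTH6 (-2.15, 0.019), XTH19 (-2.81, 0.037) and XTH24 (-1.74, 4.1e-04) were lower as well, as was XTH17 (-3.92, 5.6e-06). With each short-day-labelled group as 1 library the calls of XTH4, XTH6, XTH19, XTH24 and XTH30 were lost (adjusted p = 0.18, 0.26, 0.38, 0.069 and 0.062). Leaving out library 2 or 3 of long-day D13 also ended the call of XTH6 (adjusted p = 0.0503 and 0.0544), as did quantile normalization (0.086), and leaving out library 1 or 2 of long-day D13, or library 1 labelled short days, that of XTH19 (adjusted p = 0.10, 0.16 and 0.26). XTH19 was lost in edgeR and with only these groups fitted as well (adjusted p = 0.083 and 0.10), and XTH9 (-0.69) was called with only these groups fitted (adjusted p = 7.4e-04).

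At D40, XTH22 averaged 52535 ± 1548 normalised counts in leaves labelled short days and 522 ± 673 under long days, 101-fold higher (log2 change 7.67, adjusted p = 5.0e-12). XTH23 averaged 2183 ± 84.7 and 144 ± 166 in the same groups (4.54, adjusted p = 2.2e-05). XTH18 averaged 445 ± 105 and 6.91 ± 7.81 (6.54, adjusted p = 3.5e-06). These 3 calls held under every alternative run, and no libraries of the groups overlapped. Without library 1 of long-day D40 the log2 changes of XTH22, XTH23 and XTH18 were 8.83, 5.47 and 7.44, and without library 3 those of XTH22 and XTH18 were 6.65 and 5.42. XTH24 averaged 23204 ± 159 and 8215 ± 4252 (1.67, adjusted p = 4.3e-04), a call lost with only these groups fitted (adjusted p = 0.065) or with each short-day-labelled group as 1 library (0.058). XTH4 and XTH6 were nearly silent in both groups, at 35.5 ± 15.8 and 18.2 ± 31.6 for XTH4 and 48.5 ± 12.7 and 17.9 ± 18.6 for XTH6. Without library 2 of long-day D40 the log2 change of XTH4 was 5.09. The calls of XTH4 and XTH6 (3.15 and 1.92, adjusted p = 0.0021 and 0.030) were lost in edgeR (adjusted p = 0.28 and 0.0502), with only these groups fitted (0.25 and 0.18) and with each short-day-labelled group as 1 library (0.085 and 0.26). Of the 6 calls at D40, those of XTH18, XTH22 and XTH23 remained with only these groups fitted and with each short-day-labelled group as 1 library. The call of XTH6 was also lost after quantile normalization (adjusted p = 0.23) and without library 1 or 3 of long-day D40 or library 2 labelled short days (adjusted p = 0.26, 0.056 and 0.091). XTH30, at 279 ± 36.3 and 219 ± 146, did not pass the test (adjusted p = 0.52), nor did XTH9, XTH17 or XTH19. XTH9 passed without library 1 labelled short days at D40 (2.73, adjusted p = 0.0038).

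At D18, D23 and D30, the 10 genes held 7, 7 and 6 called either way, where 29.7%, 37.6% and 36.6% of all genes tested were. XTH22 was lower in leaves labelled short days at D18 and D23 (log2 changes -3.04 and -3.51, adjusted p = 3.8e-04 and 4.3e-05) and higher at D30 (2.99, adjusted p = 3.2e-04). XTH23 was lower at D18 and higher at D30 (-4.12 and 2.32, adjusted p = 2.1e-04 and 0.026). XTH4 was lower at D18, D23 and D30 (-2.95, -6.66 and -4.33, adjusted p = 0.0073, 9.3e-08 and 9.6e-05). XTH24 was higher at D23 (1.93, adjusted p = 1.3e-04), and at D18 it stood at 3055, 2659.9 and 2796 normalised counts in leaves labelled short days, against 2350.2, 840.5 and 2095 under long days, without overlap but not called. XTH17 was called higher at D18, at 103, 93.9 and 61.3 normalised counts in leaves labelled short days, against 3.24, 3.14 and 8.04 under long days (3.97, adjusted p = 8.6e-06).

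In leaves labelled tcx5/6, 8 of the 10 genes were lower than in Col-0 at D13 and none was higher, where 23.4% of all genes tested were lower, 20.1% higher and 43.5% called. At D30, 7 were lower and none higher, where 18.5% were lower, 16.6% higher and 35.1% called. The median log2 change of the 10 was -3.88 at D13 and -4.72 at D30, against 0.00 and -0.02 over all genes. These comparisons use the same long-day Col-0 libraries as those of leaves labelled short days, so the 2 sets are not independent.

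XTH23 had 6.18, 0 and 30.4 normalised counts in leaves labelled tcx5/6 at D13, against 1413, 1169 and 439 in Col-0 (log2 change -7.21 ± 0.83, adjusted p = 4.8e-09). XTH22 had 653, 755 and 534 normalised counts, against 46107, 37256 and 16396 in Col-0 (-5.57 ± 0.64, adjusted p = 5.2e-09). XTH18 had 0, 9.48 and 0 normalised counts, against 3103, 1079 and 165 in Col-0 (-8.55 ± 1.06, adjusted p = 2.4e-08). No library labelled tcx5/6 reached the lowest Col-0 library in any of the 3. XTH24 averaged 109 ± 22.0 normalised counts in leaves labelled tcx5/6 and 1238 ± 163 in Col-0 (-3.50, adjusted p = 1.8e-09), and XTH4 averaged 1219 ± 176 and 13338 ± 861 (-3.46, adjusted p = 0.00097). XTH17, XTH19 and XTH30 were lower too (-5.17, -4.15 and -3.61, adjusted p = 2.2e-08, 0.0019 and 1.2e-04). XTH6 and XTH9 did not pass the test, at 2565 ± 255 and 2572 ± 213 normalised counts in leaves labelled tcx5/6 and 7637 ± 1355 and 4801 ± 371 in Col-0 (adjusted p = 0.089 and 0.44). Their libraries did not overlap either, and both were called when only these 2 groups were fitted (adjusted p = 0.0012 and 0.0011).

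At D18 and D23, 9 and 7 of the 10 were called either way, where 47.6% and 24.8% of all genes tested were. XTH22 at D18 had a larger log2 difference than at D13, with 74.5, 108 and 38.6 normalised counts in leaves labelled tcx5/6, against 33525, 27075 and 40949 in Col-0 (log2 change -8.92, adjusted p = 6.0e-14). XTH30 had 19.2, 0 and 34.9 normalised counts at D18, against 1953, 988 and 1402 in Col-0 (-7.28, adjusted p = 3.0e-10). XTH6 averaged 5.36 ± 7.01 normalised counts at D30 in leaves labelled tcx5/6 and 1737 ± 613 in Col-0 (-8.77, adjusted p = 1.4e-11). XTH24 averaged 635 ± 393 and 9977 ± 2091 at D30 (-4.15, adjusted p = 1.2e-10). The lower level of XTH18 at D30 (-3.75, adjusted p = 0.0052) was lost without library 2 of Col-0 at D30 (adjusted p = 0.082) and with only these groups fitted (0.059). XTH17 was higher in leaves labelled tcx5/6 at D18, with 29.8, 34.0 and 11 normalised counts against 3.24, 3.14 and 8.04 in Col-0 (2.12, adjusted p = 0.0062).

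The change from D13 to D30 differed between leaves labelled tcx5/6 and Col-0 for 3 of the 10 genes, where 24.2% of all genes tested did, 13.3% higher and 10.9% lower. XTH6 fell more in leaves labelled tcx5/6, by a difference of -7.21 ± 1.05 (adjusted p = 2.1e-06). XTH17 and XTH18 had differences of 5.17 ± 0.90 and 4.80 ± 1.5 (adjusted p = 3.8e-05 and 0.017), in genes that were close to 0 in leaves labelled tcx5/6 at both days. XTH17 had no read at D30 in either series, so its difference is that of D13 with the sign turned. Both calls were lost in edgeR (adjusted p = 1 and 0.43), and that of XTH18 with only these groups fitted (0.087) or without library 1 of Col-0 D13, library 3 of Col-0 D30, or library 1 or 3 labelled tcx5/6 at D13 (adjusted p = 0.073, 0.065, 0.0532 and 0.0538). XTH22, XTH23 and XTH24 had differences of -0.60 ± 0.91, 0.93 ± 1.18 and -0.64 ± 0.55, which did not pass the test (adjusted p = 0.70, 0.63 and 0.44), though XTH23 did with a pseudocount of 10 (1.91, adjusted p = 0.038). XTH4 had a difference of -2.97 ± 1.20 (adjusted p = 0.068), which passed with a pseudocount of 10, with edgeR, with only these groups fitted and without library 2 labelled tcx5/6 at D30 (adjusted p = 0.0026, 0.0028, 0.018 and 0.0465).

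The 10 genes spanned a wide range of levels. Per kilobase of exon in TAIR10.1, mean levels in leaves labelled short days at D40 began with XTH22 (33041 normalised counts per kilobase), XTH24 (19177) and XTH23 (1590), and XTH6 and XTH4 stood at 33.0 and 22.0. At D13 under long days the order per kilobase was XTH22 (20914), XTH4 (8259), XTH6 (5195), XTH9 (3146), XTH18 (1147), XTH24 (1023), XTH23 (733), XTH30 (484), XTH17 (58.3) and XTH19 (28.0). Of the 15 groups, XTH22, XTH23 and XTH24 were highest in leaves labelled short days at D40, with no library of the next group reaching them. XTH4 and XTH6 were highest under long days at D18 and XTH9 at D13, and for XTH4 and XTH6 the libraries of D13 and D18 overlapped. XTH30 was highest at D18 under long days, above all libraries of the next group. XTH18 and XTH19 had their highest mean at D13 under long days and XTH17 its own in leaves labelled short days at D18, each overlapping the next group.

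**Figure D3:**
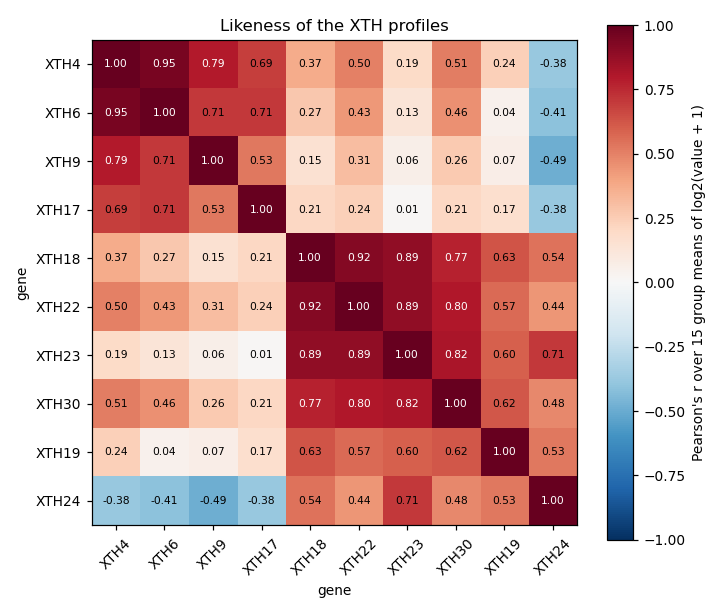
Pearson's r between the profiles of each pair of XTH genes over the 15 group means of log2(value + 1). XTH4, XTH6 and XTH9 form 1 block (0.71 to 0.95), XTH18, XTH22, XTH23 and XTH30 another (0.77 to 0.92), and XTH24 is negative with XTH4, XTH6, XTH9 and XTH17.

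Across the 15 group means, which share day, label and scaling, Pearson's r was 0.95 between XTH4 and XTH6 and 0.79 between XTH4 and XTH9. It was 0.92 between XTH18 and XTH22, 0.89 between XTH22 and XTH23, and 0.80 between XTH22 and XTH30. XTH24 had r of -0.38, -0.41 and -0.49 with XTH4, XTH6 and XTH9. Among 16467 other tested genes with a mean of 100 or more, those most like XTH22 were PHI-1 (r = 0.987) and LRX3, a wall extensin with leucine-rich repeats (0.973). Those most like XTH4 were AT4G23820 and PMR6, a pectate lyase-like gene (0.976 each), and those most like XTH6 were TBL45 (0.963) and BZIP61 (0.959). XTH9 was most like NDL3 (0.957) and TUB2, a beta-tubulin (0.954), XTH18 like WRKY22 (0.970) and PUP14 (0.963), and XTH23 like WIH2 (0.972) and PUP18 (0.961). XTH24 was most like ACA10, a calcium pump (0.962), and AT5G63905 (0.959), and XTH30 like AT5G02155 (0.972) and SYP71 (0.971). The sparse XTH17 and XTH19 had lower best values, with AT3G16850 and VAB2 (0.836 each) and with AT2G19790 (0.782) and BT4 (0.774).

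**Figure D4:**
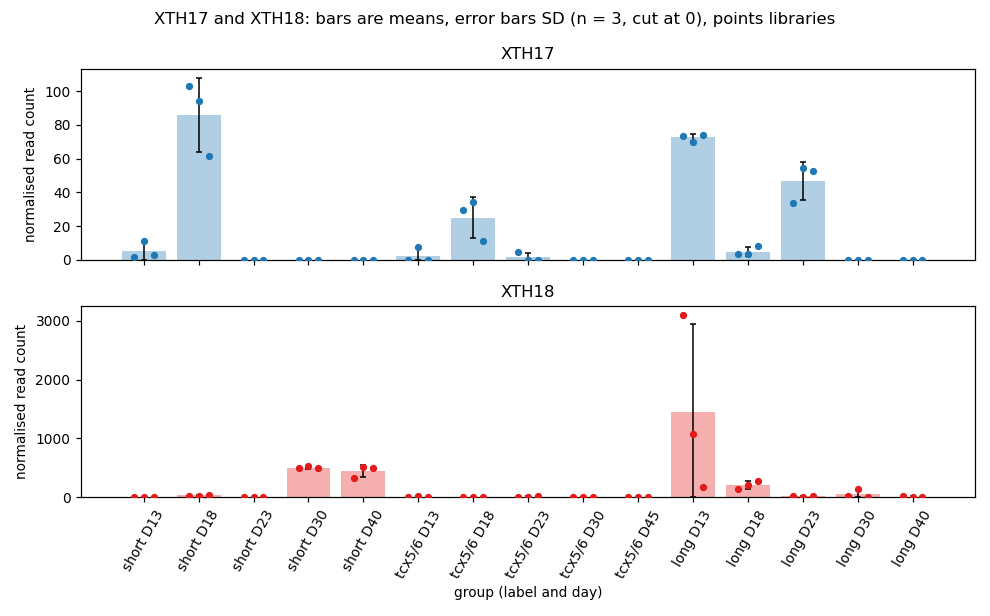
Normalised read counts of XTH17 (top) and XTH18 (bottom) in the 15 groups, labelled short days, tcx5/6 and long days from left to right; bars are means, error bars SD (n = 3, cut at 0), points libraries. XTH17 is at 0 in leaves labelled short days at D30 and D40, where XTH18 is at 324 to 520.4.

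XTH17 and XTH18, which share the run of 73 bases before their starts, had r = 0.21 over the 15 groups. In leaves labelled short days, XTH18 had 487, 520.4 and 496 normalised counts at D30, and XTH17 had no read in any of these libraries. Under long days XTH17 was lower at D18 and higher again at D23 (log2 changes -3.76 and 3.11, adjusted p = 1.5e-04 and 7.9e-04), and XTH18 fell between D18 and D23 (-3.88, adjusted p = 0.012). These sparse reads of XTH17 stand beside the close identity of the genes, and reads shared between them could not be told apart.

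The family's remaining 23 genes held 14 that could be tested. At D40 relative to D13 under long days, 11 of the 14 fell and 3 rose (median log2 change -5.43), where 35.8% of all genes tested fell and 34.0% rose. In leaves labelled short days 7 fell and 5 rose (median -1.24), where 36.5% of all genes fell and 34.0% rose. In those labelled tcx5/6 at D45, 11 fell and 1 rose (median -2.98), where 33.9% fell and 30.1% rose. XTH7, XTH8, XTH15 and XTH16 had the smallest adjusted p under long days, with log2 changes of -11.04, -9.06, -10.96 and -11.37. XTH8 had no read at the last day in any series. XTH15 averaged 2.84 ± 1.43 normalised counts in leaves labelled short days at D13 and 2020 ± 455 under long days (log2 change -9.09, adjusted p = 3.3e-13). Part of the exons of XTH15 (31.6%) lies under a gene on the opposite strand, from which about 10.9% of its mean could come.

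Of 14 genes for the synthesis of xyloglucan, 12 fell and none rose at D40 relative to D13 under long days, 7 fell and 4 rose in leaves labelled short days, and at D45 9 fell and 1 rose in those labelled tcx5/6, beside the same shares of all genes. At D40, 10 of the 14 were higher in leaves labelled short days than under long days and none was lower (median log2 change 1.98, against 0.07 over all genes), where 29.1% of all genes tested were higher and 21.2% lower. XXT1, a xylosyltransferase that adds the first side-chain sugar, averaged 8853 ± 394 normalised counts in leaves labelled short days at D40 and 67.6 ± 21.5 under long days (7.07, adjusted p = 1.6e-22). It rose with age in leaves labelled short days (4.16, adjusted p = 5.8e-17) and fell under long days (-5.56, adjusted p = 7.4e-21). CSLC4, a synthase of the glucan backbone, fell under long days (-4.67, adjusted p = 8.8e-21) and was not called in leaves labelled short days (0.17, adjusted p = 0.46). CSLC8 and XXT2 fell in both (-4.61 and -2.38 under long days, adjusted p = 2.7e-16 and 1.4e-16).

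Of 5 genes for enzymes that trim xyloglucan side chains, 4 fell and 1 rose under long days, where 35.8% of all genes fell and 34.0% rose. In leaves labelled short days 3 fell and 1 rose, and in those labelled tcx5/6 4 fell and none rose. All 5 were higher in leaves labelled short days than under long days at D40, where 29.1% of all genes were. AXY8, a fucosidase, had the largest fall of those named under long days (-8.54, adjusted p = 4.0e-20), beside XYL1, an alpha-xylosidase (-3.61, adjusted p = 3.1e-19), BGAL10, a beta-galactosidase (-5.88, adjusted p = 8.6e-16), and BGLC3 (-3.37, adjusted p = 4.2e-13). All 6 cellulose synthase genes of the primary wall fell in leaves labelled short days (median -1.30) and under long days (median -3.0), and 5 of the 6 in those labelled tcx5/6, where 36.5%, 35.8% and 33.9% of all genes fell. Among the 6 were CESA1, CESA2, CESA3 and CESA6 (-2.74, -4.51, -2.61 and -3.26 under long days). All 3 of the secondary wall, CESA4, CESA7 and CESA8, fell in each series, with -5.33, -6.45 and -7.10 under long days. The sum of the xylem markers XCP1, XCP2, VND7 and LAC4 moved with them. In leaves labelled short days it lay at 39.3 to 67.7 normalised counts at D40 and 945 to 1067 at D13. It lay at 12 to 119 in those labelled tcx5/6 at D45 and 1086 to 1373 at D13. Under long days it lay at 7.69 to 94.8 at D40 and 2274 to 2613 at D13. VND7 by itself overlapped in leaves labelled short days, at 10.8 to 25.2 at D40 and 12.3 to 36.5 at D13. The part of these markers in the result was not tested. These lists were chosen with results of these data known, and their counts are descriptions.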

How the data were processed

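The labels describe first true leaves, RNA isolated with a kit, and a non-stranded library protocol for polyadenylated RNA. Per the submitters' processing notes, reads were handled with DESeq2 1.40.1, HTSeq 2.0, STAR 2.7.1a, Trim Galore 0.6.6 and cutadapt, listed with no order. Of the genome build, the sources used here say nothing. The deposited table holds a normalised signal, which from its values is read counts per gene divided by 1 size factor per library. After division by the smallest step of the library, 100.0% of values were whole within 0.01, so whole reads were recovered. In 5 libraries that step was 0.9898 to 1.0085, so the deposited signal itself is close to read counts there. The 5 summary entries that name no gene were left out; reads in no feature were 46.0 to 48.2% of counted reads.

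Genes with at least 10 in 3 or more libraries were kept, 23493 of 37336. The test was limma 3.58.1 in R 4.3.3 with a mean-variance trend on log2(value + 1), all 15 groups in 1 fit, and Benjamini-Hochberg adjustment within each of 29 comparisons (9 main, the rest steps between days and days between). Calls were made where adjusted p was under 0.05. A fold change on this scale understates the change of low genes. All 10 XTH genes are named, and in each gene list up to 4 called genes with the smallest adjusted p under long days. The alternatives were TMM and quantile scaling, a pseudocount of 10, no filter, edgeR 4.0.16 on the recovered reads (which called 16181, 16431 and 14983 genes for the last day against D13 in Col-0 under long days, labelled short days and labelled tcx5/6), only the groups compared, a replicate block, each short-day-labelled group as 1 library, and each library left out. The script was tested on simulated data, where it missed many of the smaller changes, so a gene that was not called may still have changed. Floors take 3 reads over a group and cover counting error only. Sequences, exon lengths and gene neighbours came from RefSeq TAIR10.1, to which 37051 IDs matched; no coordinates are printed. The members and lists were chosen with earlier results of these data known.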

Additional observations from a re-analysis of the deposited data

Results flagged for a closer look

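Age changes (log2, last day or D30 minus D13) that differed between series by the interaction test of limma (adjusted p under 0.05) are listed here with no explanation. Between leaves labelled short days and long days the differences were 15.58 for XTH18, 12.15 for XTH22, 10.60 for XTH23, 5.97 for XTH4, 4.08 for XTH6, 3.98 for XTH30, 3.92 for XTH17 and 3.41 for XTH24. Between leaves labelled tcx5/6 and Col-0 they were -7.21 for XTH6, 5.17 for XTH17 and 4.80 for XTH18. Both values of XTH17 restate its difference at D13, since it had no read at the later day in any of the groups compared. The short-day-labelled libraries had low TCX5 and no QQS reads, so the labelled day length and what else set these libraries apart cannot be told apart.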

How the results depend on the processing

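No called log2 change of the 10 genes changed sign under any alternative run. Of 670 values under alternatives other than leaving out a library, in the 9 main comparisons, 31 lost a call and 12 gained one; of 660 leave-one-out values, 21 lost and 10 gained one. With each short-day-labelled group as 1 library, XTH genes called numbered 4 for short against long days at D13, 3 at D40 and 5 for the difference of age changes, and all genes called numbered 10548 for D40 against D13 labelled short days, 4402 and 7069 for short against long days at D13 and D40, and 5260 for the difference. That setting leaves 1 sample in each such group, assumed to vary like the other groups. With only the groups compared, short against long days at D40 gave 3 XTH genes and 5874 genes in all. With a pseudocount of 10, the tcx5/6 and Col-0 difference gave 5 XTH genes. The first 2 settings hold fewer samples, and the cause of these moves was not tested.
Leaving out single libraries gave 8 to 10 XTH genes called for D40 against D13 under long days, 9 to 9 labelled short days, 5 to 6 labelled tcx5/6, 7 to 9 for short against long days at D13 and 5 to 7 at D40, 8 to 8 and 6 to 7 for tcx5/6 against Col-0 at D13 and D30, and 8 to 9 and 2 to 4 for the differences of age changes.
Same-numbered libraries of compared groups had correlations of deviations from -0.088 to 0.135, so the numbers do not pair the samples. A fit with the replicate number as a block called 9, 9, 6, 9, 6, 8, 7, 8 and 3 XTH genes in the 9 comparisons in the order just given, as without the block.
XTH17 and XTH19 rest on few reads, which limits what can be seen in them.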
